A study of Mus musculus with 26 samples.

Results

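The methionine cycle and the serine branch of one-carbon metabolism were followed here through 10 enzyme genes, given by symbol and not by a threshold on their values: Gnmt, Mat1a, Mat2a, Bhmt, Ahcy and Cbs for methionine, and Phgdh, Psat1, Shmt2 and Mthfd2 for serine and mitochondrial folate. All 10 were found among the 35976 entries of a table of read counts from mouse liver tumours and control livers. Tumour mice were a mix of C57BL/6J and Swiss Webster and received tamoxifen on postnatal day 28, after which they were followed for 6 to 12 months. Group Cyp1a2_CA (10 libraries, 9 animals) carried Cyp1a2-CreERT2, Ctnnb1(ex3)fl/+ and Arid2fl/fl, and group Gls2_CA (9 libraries, 5 animals) carried Gls2-CreERT2 with the same Ctnnb1 and Arid2 alleles. Group Cyp1a2_C was a single library with Cyp1a2-CreERT2 and Ctnnb1(ex3)fl/+ and no Arid2 allele named. The WT group (6 animals) was C57BL/6J liver from mice given AAV-Cre and kept on normal chow for up to 12 months. CreERT2 is a Cre recombinase that works only with tamoxifen. Cyp1a2 is expressed by hepatocytes around the central vein and Gls2 by hepatocytes around the portal vein, so each driver starts the same Ctnnb1 and Arid2 changes in another zone of the liver lobule. Animals were read from the numbers in the titles, and tumour libraries with the same number were summed. Nothing in the labels states that equal numbers are 1 animal, so p-values measure the spread between these numbers.

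The liver is the main site of methionine breakdown. Methionine adenosyltransferase makes S-adenosylmethionine, the methyl donor of the cell, from methionine. Mat1a encodes the form of the adult hepatocyte, and Mat2a the form of most other cells and of dividing cells. Gnmt uses up S-adenosylmethionine by methylating glycine, Ahcy splits the S-adenosylhomocysteine left after methylation, Bhmt returns homocysteine to methionine with betaine, and Cbs sends homocysteine with serine towards cysteine. Phgdh and Psat1 catalyse the opening steps of serine synthesis from a glycolytic intermediate. Shmt2 then moves a carbon unit from serine to folate in mitochondria, and Mthfd2 oxidises the product. Normal adult liver holds little Phgdh, Psat1 and Mthfd2, and these are known as genes of growing cells.

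Ahcy, 1 of the 10 genes, has a near-identical copy in the count table, and the sequences show why the counts of both must be read together. Ahcy lies on the minus strand at chr2:155059310-155074497 (mm10, GENCODE M21), and Gm4737, an annotated protein-coding gene, on the minus strand at chr16:46152985-46155077. The coding sequences are 1299 bases long and 99.7% identical, with 4 differences, counted from 1 at the first base of the start codon with the base of Ahcy first: C459T, G474A, C1050T and C1068T. The stretches around the differences are shown with the differing bases in capitals, at coding positions 439 to 494 and then 1030 to 1088.
Ahcy 439 to 494: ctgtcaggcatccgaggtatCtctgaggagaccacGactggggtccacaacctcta
Gm4737 439 to 494: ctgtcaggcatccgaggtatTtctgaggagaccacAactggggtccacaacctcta
Ahcy 1030 to 1088: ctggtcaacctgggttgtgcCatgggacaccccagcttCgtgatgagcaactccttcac
Gm4737 1030 to 1088: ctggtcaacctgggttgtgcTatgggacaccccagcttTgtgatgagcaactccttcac
The longest run without a difference was 575 bases. Of all 100-base windows of the coding sequence, 80.6% contained no difference. A read of that length from most of the coding sequence could thus have come from either gene. Exons total 2805 bases for Ahcy and 2093 for Gm4737, and those outside the coding sequence were not compared. Ahcy has a second copy, the processed pseudogene Gm9826 (99.2% identical over 1299 bases), with no row in the count table. Among the other members, Phgdh has 8 annotated copies of at least 95% identity over at least 300 bases, Bhmt 2 and Mat2a 1. None of these 11 has a row in the count table. The closest were Gm5096, annotated as protein-coding, for Bhmt (99.7% over 1224 bases) and the pseudogene Gm7901 for Phgdh (98.7% over 1597 bases). How reads that fit both a member and such a copy were counted is not given in the sources used here.

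Levels are in CPM, the usual unit for counts relative to the scaled total of a library. Libraries held 36992043 to 49254470 counts in the tumour groups and 13486530 to 16975288 in WT. Against WT, 70.9% of 16841 genes tested passed in Cyp1a2_CA and 73.2% of 14976 in Gls2_CA (edgeR quasi-likelihood test, Benjamini-Hochberg adjusted p under 0.05 over all genes), and a call among the members is to be read against those shares. The median log2 fold change ran with exon length, from -1.01 in the 733 genes of up to 1000 bases to 1.27 in the 2460 genes over 8000 bases in Cyp1a2_CA, and from -1.08 to 1.24 in Gls2_CA. Depth, strain, this trend and the way Cre was given (AAV-Cre in WT, tamoxifen in tumour mice) moved with the contrast of tumour against WT, and their part in it cannot be told apart from that of the tumours. Any difference in the handling of the libraries would move with the same contrast. WT libraries stood apart in depth and, as given below, in the share of a copy of Ahcy, and the cause of that share was not tested. Arid2 fell in both tumour groups, with a mean of 31.1 ± 4.05 CPM (SD, n = 9) in Cyp1a2_CA, 36.3 ± 8.46 (n = 5) in Gls2_CA and 67.2 ± 4.33 (n = 6) in WT, and was at 40.8 CPM in the Cyp1a2_C library. Counts per gene do not show the exon 3 of Ctnnb1. In 4 tumour libraries, 2 of Cyp1a2_CA, 1 of Gls2_CA and the Cyp1a2_C library, the muscle gene Ttn stood between 8668 and 30171 CPM against at most 92.9 CPM in all other libraries. The summed level of 6 hepatocyte markers (Alb, Apoa1, Ttr, Serpina1c, Hnf4a and Fgb) ranged from 67591 to 89318 CPM in WT libraries, from 7680 to 40811 in Cyp1a2_CA, from 2874 to 14102 in Gls2_CA and was 407 in the Cyp1a2_C library, with no marker at 0 in any group. Alb made up most of that sum in WT, at a mean of 58612 CPM. Of the 6 markers, 5 were lower than WT in each tumour group, and Hnf4a did not pass the threshold. Of 5 endothelial markers, 4 were lower and 1 was higher in each tumour group. For macrophages 3 of 6 were lower in each, and 1 was higher in Gls2_CA. For stellate cells and fibroblasts 2 of 6 were lower in Cyp1a2_CA and 4 of 6 in Gls2_CA. Among cholangiocyte markers 1 was higher in each group, and 1 was lower in Gls2_CA. Without the libraries with high Ttn, 0 of 4 cholangiocyte markers tested were higher and 2 were lower in Cyp1a2_CA. The summed stellate and fibroblast markers were at 1016 CPM in the Cyp1a2_C library against 374 to 459 in WT, and the cholangiocyte markers at 311 against 29.8 to 50. Fewer hepatocytes and less RNA per hepatocyte cannot be told apart in these bulk samples, and the part of either, or of the other cell types, in the changes below was not tested.

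In both tumour groups, Mat1a, Gnmt, Bhmt and Ahcy, all enzymes of the methionine cycle, fell, as did Mat2a and Shmt2. Of the enzymes that make serine, Phgdh and Psat1 rose in Cyp1a2_CA. In Gls2_CA Psat1 rose, with a call that was lost under 2 alternatives given below, and Phgdh could not be tested. In Cyp1a2_CA all 10 members passed, 4 higher and 6 lower than WT, where 38.3% and 32.7% of all genes passed in those directions. In Gls2_CA 9 members could be tested, of which 2 passed as higher and 6 as lower, where 39.2% and 34% of all genes did. With limma-voom and the animal as a random effect, 0 members were higher in Gls2_CA. The median log2 fold change of the members was -0.95 in Cyp1a2_CA and -0.77 in Gls2_CA, beside 0.17 and 0.14 over all genes tested. In Cyp1a2_CA, 6 members were lower in every animal than in any WT animal, as were 20.8% of all genes tested, and 2 were higher in every animal (23.4% of all genes). In Gls2_CA, 6 were lower in every animal (26% of all genes) and 1, Psat1, was higher (29.9%). Some single libraries of Gls2_CA lay within the WT range of Psat1, as given below. Both comparisons share the 6 WT animals. The plot of levels in every animal shows the members side by side.

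**Figure D1:**
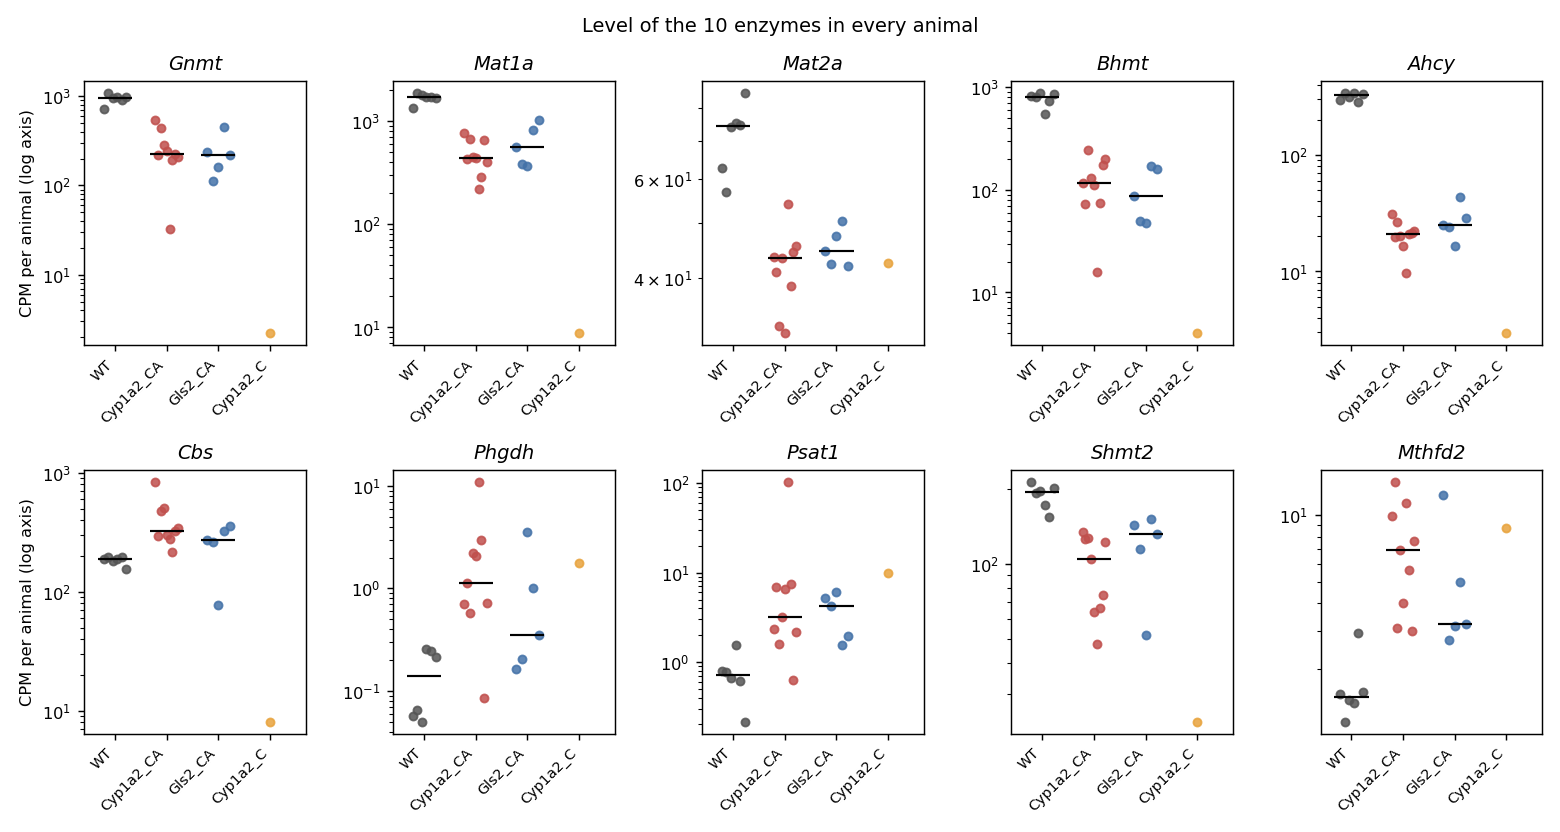
Level of each enzyme in CPM (log axis, own range per panel) in every animal, with 6 WT, 9 Cyp1a2_CA, 5 Gls2_CA animals and the single Cyp1a2_C library; black lines are medians and Phgdh values under 0.05 CPM are drawn at 0.05. Gnmt, Mat1a, Mat2a, Bhmt, Ahcy and Shmt2 are lower in every animal of both tumour groups than in any WT animal, whereas Phgdh, Psat1 and Mthfd2 start from at most 2.93 CPM in WT.

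Mat1a (chr14:41105035-41124412, plus strand), the hepatocyte enzyme for S-adenosylmethionine, stood at 1339 CPM in the lowest, 1713 in the median and 1877 in the highest of 6 WT animals. In Cyp1a2_CA the lowest, median and highest animals were at 220, 444 and 765 CPM, and the 5 Gls2_CA animals were at 364, 383, 567, 822 and 1029. No tumour animal reached the lowest WT animal. The log2 fold change was -1.89 (SE 0.229, adjusted p = 2.1e-06, edgeR) in Cyp1a2_CA, a 3.71-fold lower level, and -1.52 (SE 0.271, adjusted p = 3.2e-04, edgeR) in Gls2_CA, 2.86-fold lower.

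Mat2a (chr6:72432799-72439558, minus strand), the form of dividing cells, also fell, by less. WT animals ranged from 56.9 through a median of 74.5 to 85.2 CPM, Cyp1a2_CA animals from 31.9 through 43.3 to 54.1, and the Gls2_CA animals were at 42.0, 42.3, 44.6, 47.5 and 50.4. Relative to the mean, its SD over tumour animals was the smallest of the 10 members, and no tumour animal overlapped with WT. Its log2 change was -0.85 (SE 0.121, adjusted p = 1.1e-05, edgeR) in Cyp1a2_CA and -0.74 (SE 0.124, adjusted p = 1.9e-04, edgeR) in Gls2_CA.

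Since Mat1a fell further than Mat2a, the balance of both forms moved towards Mat2a. The log2 ratio of Mat2a to Mat1a counts in an animal averaged -4.56 ± 0.25 (SD, n = 6) in WT, -3.44 ± 0.71 (n = 9) in Cyp1a2_CA and -3.69 ± 0.67 (n = 5) in Gls2_CA. The difference from WT was 1.12 in Cyp1a2_CA (2-sided exact permutation test over animals, p = 0.002, adjusted over 6 such tests 0.012), with 8 of 9 animals above every WT animal. In Gls2_CA it was 0.88 (exact permutation p = 0.015, adjusted 0.03), with 4 of 5 animals above every WT animal, and 0.61 (exact permutation p = 0.051) with each library taken as a replicate. Per exon length, Mat2a was still the minor form in every animal of the replicated groups, at a median of 0.0339 of the Mat1a level in WT, 0.0734 in Cyp1a2_CA and 0.0608 in Gls2_CA, with a highest value of 0.19. In the Cyp1a2_C library the order was turned, with Mat2a at 3.70 times the Mat1a level per exon length.

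Gnmt (chr17:46725664-46729168, minus strand), the glycine methyltransferase that consumes S-adenosylmethionine, ranged in WT from 725 through a median of 964 to 1083 CPM. Cyp1a2_CA animals ranged from 32.5 through 226 to 534 CPM, and Gls2_CA animals were at 112, 160, 217, 239 and 447. Every tumour animal was below every WT animal, and animal CAB52 stood lowest. On the log2 scale the change was -1.90 (SE 0.372, adjusted p = 2.9e-04, edgeR) in Cyp1a2_CA and -2.09 (SE 0.312, adjusted p = 7.8e-05, edgeR) in Gls2_CA.

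Bhmt (chr13:93616675-93637961, minus strand), which remethylates homocysteine with betaine, fell by a larger step. WT animals ranged from 543 through 806 to 879 CPM, Cyp1a2_CA animals from 15.9 through 117 to 247, and Gls2_CA animals were at 48.0, 50.2, 87.5, 159 and 169. Against WT the log2 change was -2.68 (SE 0.389, adjusted p = 1.5e-05, edgeR), 6.43-fold lower, in Cyp1a2_CA and -3.02 (SE 0.359, adjusted p = 1.3e-05, edgeR), 8.09-fold lower, in Gls2_CA. How reads that fit both Bhmt and its copy Gm5096 were counted is not known, so the level of Bhmt is uncertain to that extent. Its neighbour enzyme Bhmt2, which uses S-methylmethionine, fell by 2.22 and 2.20 on the log2 scale.

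Ahcy, which removes S-adenosylhomocysteine, fell in both groups, by an amount that depends on how its copy is counted. WT animals ranged from 282 through 323 to 339 CPM, Cyp1a2_CA animals from 9.65 through 21.0 to 31.2, and Gls2_CA animals were at 16.6, 24.1, 25.0, 28.7 and 43.2. The log2 fold change was -4.0 (SE 0.192, adjusted p = 1.0e-10, edgeR) in Cyp1a2_CA and -3.62 (SE 0.22, adjusted p = 7.1e-08, edgeR) in Gls2_CA. Gm4737 moved the other way, from 1.43 to 4.13 CPM in WT animals to 5.57 to 31.1 in Cyp1a2_CA and 5.42 to 30.3 in Gls2_CA, a log2 fold change of 2.54 and 2.28 (adjusted p = 9.5e-06 and 5.8e-04, edgeR). Of the counts given to both genes in a library, Gm4737 held between 0.483% and 1.24% for WT, but between 20.5% and 54.5% for the 20 libraries from tumours. The 95% Wilson interval was 0.328% to 0.713% in the lowest WT library and 52.1% to 56.9% in the highest tumour library, and covers counting error only. With the counts of both genes summed before the fit, an alternative chosen after seeing the data, the log2 fold change of Ahcy was -3.10 (SE 0.202, adjusted p = 2.0e-09, edgeR), 8.60-fold lower, in Cyp1a2_CA and -2.99 (SE 0.245, adjusted p = 6.3e-07, edgeR), 7.97-fold lower, in Gls2_CA. The sum ranged from 284 to 341 CPM in WT libraries and from 18.7 to 66.0 in those of Cyp1a2_CA and Gls2_CA, with no overlap. How the submitters' counting placed reads that fit both genes is not given in the sources used here, so the separate value of each is uncertain.

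**Figure D2:**
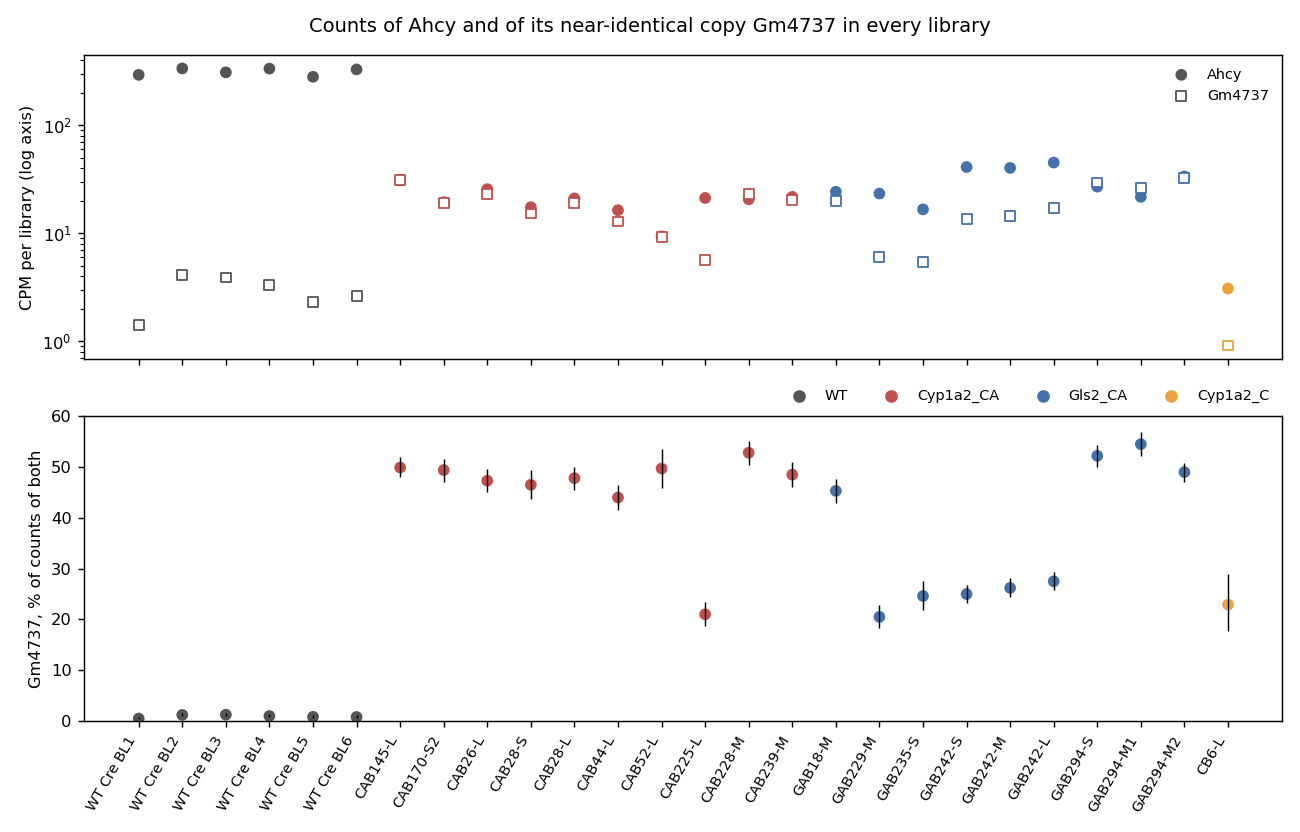
Top: CPM of Ahcy (filled circles) and Gm4737 (open squares) in each of the 26 libraries, on a log axis. Bottom: the percentage of the counts of both genes that was given to Gm4737, with 95% Wilson intervals; it lies between 0.483% and 1.24% in WT and between 20.5% and 54.5% in tumour libraries.

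Cbs (chr17:31608894-31637238, minus strand), the entry to transsulfuration, was the exception among the methionine enzymes. WT animals ranged from 156 through 189 to 197 CPM and Cyp1a2_CA animals from 215 through 328 to 844, with no overlap. The Gls2_CA animals were at 77.6, 264, 274, 322 and 361 CPM, so that 4 stood above and 1, GAB235, below every WT animal. Cbs thus had a log2 fold change of 1.04 (SE 0.251, adjusted p = 0.0017, edgeR) in Cyp1a2_CA and 0.38 (SE 0.28, adjusted p = 0.23, edgeR) in Gls2_CA. Cbs has 7485 exon bases, the longest of the members, and with an offset for exon length and GC content the value was 0.37 (adjusted p = 0.27) in Cyp1a2_CA and -0.28 (adjusted p = 0.45) in Gls2_CA. Without GAB235, whose library is 1 of the 4 with high Ttn, it was 0.61 (adjusted p = 2.5e-04) in Gls2_CA.

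Phgdh (chr3:98313170-98339990, minus strand), the committed step of serine synthesis, was close to the limit of detection in WT, where the 6 libraries held 0 to 4 counts each and 13 in all. Cyp1a2_CA animals ranged from 3 to 387 counts, or from 0.0857 through a median of 1.14 to 11 CPM, against at most 0.257 CPM in WT. Of the 9 animals, 8 were above every WT animal and 1, CAB228, was within the WT range. The log2 fold change was 4.0 (SE 0.991, adjusted p = 0.002, edgeR), and 3.16 without CAB52, the highest animal. Gls2_CA animals were at 0.163, 0.204, 0.351, 1.01 and 3.53 CPM, 3 of 5 above every WT animal. Phgdh did not pass the filter on low counts in Gls2_CA against WT and was not tested there. Without that filter the log2 fold change was 2.89 (adjusted p = 0.021, edgeR). As WT held so few counts, the size of these fold changes is uncertain. How reads that fit both Phgdh and its annotated copies were counted is not known either.

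Psat1 (chr19:15904678-15947337, minus strand), the next enzyme of serine synthesis, ranged in WT from 0.215 through 0.716 to 1.54 CPM. Cyp1a2_CA animals ranged from 0.629 through 3.22 to 104 CPM, with CAB52 at 104 and the next animal at 7.52. The log2 fold change was 4.2 (SE 1.17, adjusted p = 0.0047, edgeR), and 2.27 (adjusted p = 0.0024) without CAB52. DESeq2 gave 2.20 after replacing the count of CAB52, 3640, with 76 as an outlier. Gls2_CA animals were at 1.56, 1.96, 4.25, 5.25 and 6.02 CPM, all above WT, though the lowest was close to the highest WT animal. Single libraries of GAB242 (1.11 and 1.07 CPM) and GAB294 (0.851 and 0.855) lay within the WT range. Psat1 had a log2 fold change of 2.22 (SE 0.481, adjusted p = 0.0013, edgeR) in Gls2_CA. That call was lost when all 3 groups shared 1 fit (2.22, adjusted p = 0.074) and with limma-voom and the animal as a random effect (1.73, adjusted p = 0.072).

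Shmt2 (chr10:127517123-127522444, minus strand), the mitochondrial enzyme that splits serine to glycine, went down. WT animals ranged from 154 through 194 to 213 CPM, Cyp1a2_CA animals from 47.5 through 104 to 134, and Gls2_CA animals were at 51.7, 114, 132, 143 and 151. This was a log2 fold change of -1.05 (SE 0.207, adjusted p = 3.1e-04, edgeR) in Cyp1a2_CA and -0.77 (SE 0.221, adjusted p = 0.0075, edgeR) in Gls2_CA. Its cytosolic counterpart Shmt1 fell by 0.99 and 1.12 on the log2 scale. The log2 ratio of Shmt2 to Shmt1 counts averaged 0.56 ± 0.16 (SD, n = 6) in WT, 0.52 ± 0.64 (n = 9) in Cyp1a2_CA and 1.00 ± 0.33 (n = 5) in Gls2_CA. The difference from WT was -0.04 in Cyp1a2_CA (exact permutation p = 0.85) and 0.44 in Gls2_CA (exact permutation p = 0.015, adjusted over 6 such tests 0.03), with 3 of 5 animals above every WT animal. With each library of Gls2_CA taken as a replicate, the difference was 0.37 (exact permutation p = 0.091). The fold changes of Shmt2 and Shmt1 in Gls2_CA lay closer together with the offset for exon length and GC content. They were -0.92 and -1.09 on the log2 scale, against -0.77 and -1.12 without it. The ratio itself was not tested with the offset.

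Mthfd2 (chr6:83305691-83325908, minus strand), the mitochondrial folate dehydrogenase of growing cells, rose while Shmt2 fell. WT animals ranged from 1.16 through 1.5 to 2.93 CPM and Cyp1a2_CA animals from 3 through 6.97 to 14.2, with no overlap. Gls2_CA animals were at 2.73, 3.14, 3.20, 5.01 and 12.4 CPM, 4 of 5 above every WT animal. Mthfd2 had a log2 fold change of 2.05 (SE 0.38, adjusted p = 1.7e-04, edgeR) in Cyp1a2_CA and 1.55 (SE 0.413, adjusted p = 0.005, edgeR) in Gls2_CA, where it was 1.19 (adjusted p = 0.086) with limma-voom and the animal as a random effect and 0.99 (adjusted p = 0.0092) without GAB18.

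**Figure D3:**
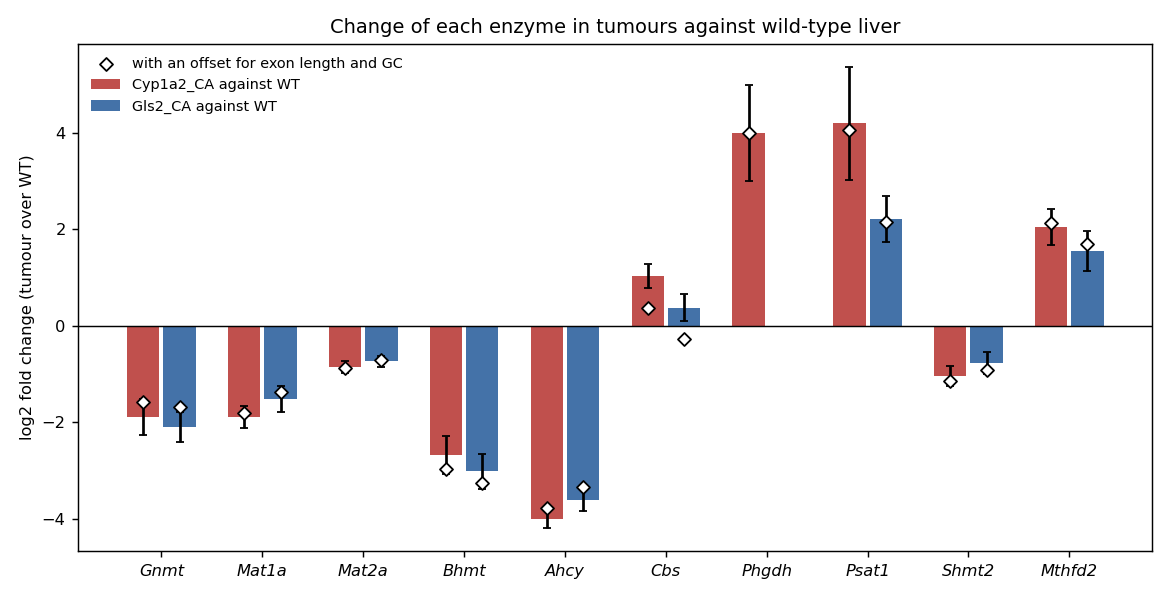
Log2 fold change of each enzyme in Cyp1a2_CA (red) and Gls2_CA (blue) against the same 6 WT animals, as bars with their standard errors (edgeR); diamonds are the values with an offset for exon length and GC content. Phgdh has no bar in Gls2_CA because it was filtered out, and Cbs is the member whose value moves across 0 with the offset, from 0.38 to -0.28 in Gls2_CA.

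Per exon length, the order of mean levels in WT was Gnmt (777 CPM per kilobase), Mat1a (486), Bhmt (134), Ahcy (113), Shmt2 (60.5), Cbs (24.6), Mat2a (15.9), Mthfd2 (0.482), Psat1 (0.18) and Phgdh (0.0562). In Cyp1a2_CA, Gnmt (219 CPM per kilobase) and Mat1a (138) still stood highest, with Cbs (53.4), Shmt2 (30.9) and Bhmt (22) next. Ahcy (7.44) and Mat2a (9.30) followed. The Ahcy value leaves out the counts given to Gm4737, which was at 8.75 CPM per kilobase in Cyp1a2_CA, so the order of Ahcy and Mat2a is uncertain. In Gls2_CA the level of Gnmt was 195 ± 107 CPM per kilobase (SD, n = 5) and that of Mat1a 183 ± 83 in the same animals. Differences between neighbours in the order were not tested within animals. Psat1, Mthfd2 and Phgdh had the lowest means of the 10 members in all 3 groups.

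No member differed between the drivers in a test of the difference itself. Of 17129 genes tested between Cyp1a2_CA and Gls2_CA, 0% passed with edgeR, 554 had an unadjusted p under 0.05 and 19 (0.111%) passed with DESeq2. The largest member values were for Psat1 (log2 difference 1.99, SE 1.14), Phgdh (1.17, SE 0.998) and Cbs (0.64, SE 0.361), all higher in Cyp1a2_CA with an edgeR adjusted p of 1. Without CAB52 those of Psat1 and Phgdh were 0.04 and 0.31. For Mat2a the difference was -0.11 (SE 0.135) and for Mat1a -0.38 (SE 0.31), so the data bound the first more closely than the second. The log2 ratio of Mat2a to Mat1a differed by 0.25 (exact permutation p = 0.54) and that of Shmt2 to Shmt1 by -0.48 (exact permutation p = 0.14).

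Among tumour libraries with the same animal number, Phgdh differed by 12.6 to 21.0 times between the highest and lowest library of CAB28, GAB242 and GAB294. The lowest libraries held only 9, 6 and 2 counts of Phgdh, so the size of these ratios is uncertain. Of the 3 libraries of GAB242, 1 held 2.64 CPM of Phgdh and the other two 0.154 and 0.202. The same library held 10.1 CPM of Mthfd2 against 1.97 and 2.72. In CAB28 Phgdh was at 4.48 and 0.213 CPM, while Mat1a was at 423 and 442 and Cbs at 494 and 497. In GAB294 Bhmt ranged from 56.1 to 244 CPM and Psat1 from 0.851 to 4.35, and the library with the lowest Bhmt had the highest Psat1. These are single libraries without a replicate.

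**Figure D4:**
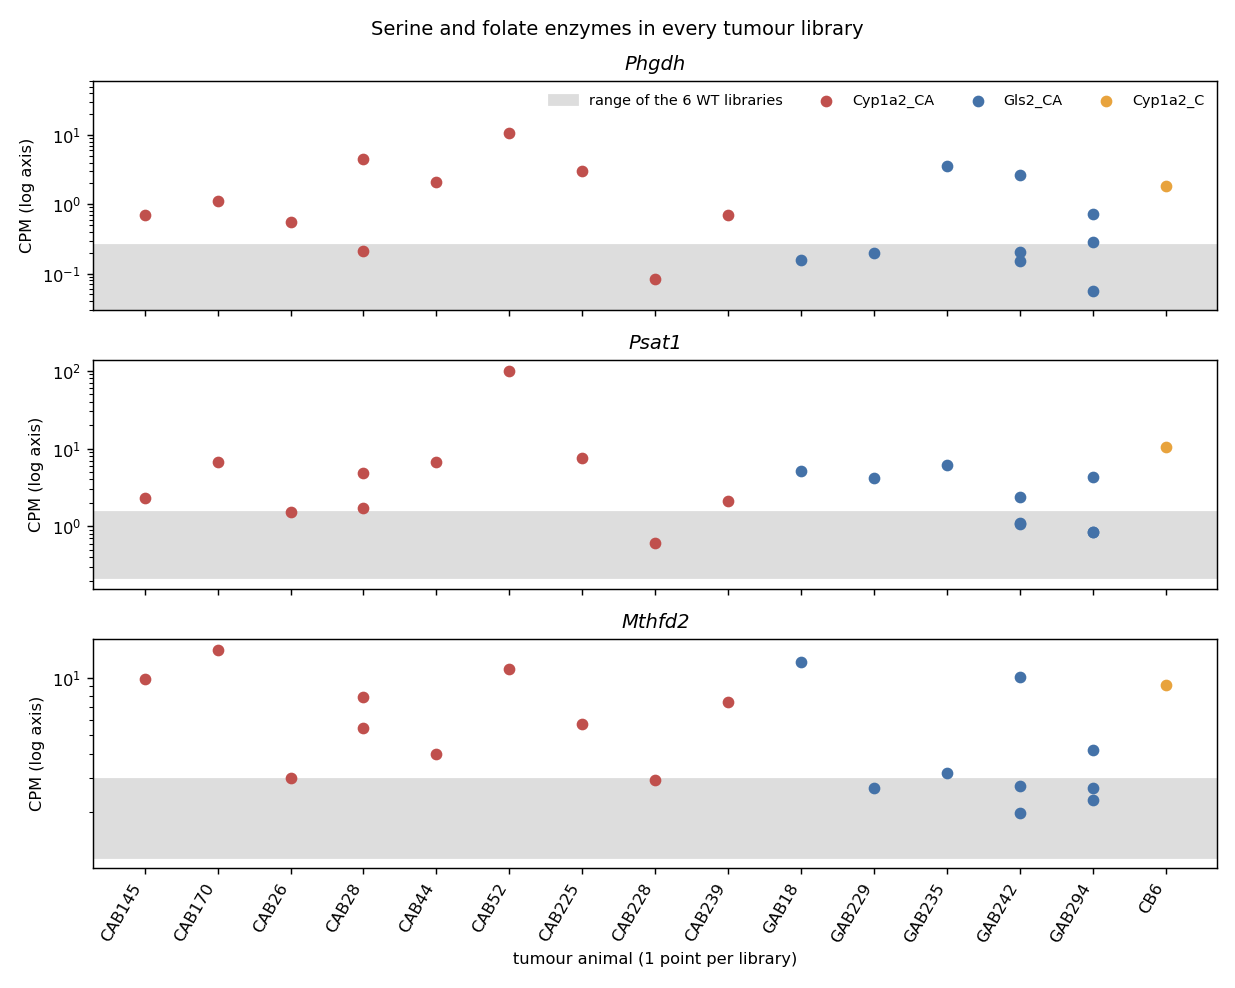
CPM of Phgdh, Psat1 and Mthfd2 (log axes) in each tumour library, placed by animal, with the grey band giving the range of the 6 WT libraries. Libraries of CAB28, GAB242 and GAB294 spread over the band and above it for Phgdh, and CAB52 stands at the top for Phgdh and Psat1.

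Across the 11 tumour animals without a high Ttn library, 6 pairs of genes were examined on log2 CPM. Mat1a and Gnmt varied together (Pearson r = 0.79, permutation p = 0.0045, adjusted 0.013; Spearman rho = 0.70, permutation p = 0.021, adjusted 0.062; r = 0.82 without the 2 animals farthest from the median Mat1a), and within the 7 Cyp1a2_CA animals r was 0.92 (exact permutation p = 0.0056). Mthfd2 varied with the proliferation gene Mki67 (r = 0.79, permutation p = 0.0022, adjusted 0.013; rho = 0.81, permutation p = 0.004, adjusted 0.024; r = 0.82 without the 2 farthest animals), and within the 7 Cyp1a2_CA animals r was 0.72 (exact permutation p = 0.049). Mat1a and Bhmt gave r = 0.75 (permutation p = 0.0082, adjusted 0.016) but rho = 0.53 (permutation p = 0.1, adjusted 0.2) and r = 0.48 without the 2 farthest animals. Within the 7 Cyp1a2_CA animals it was 0.79 (exact permutation p = 0.046). Phgdh and Psat1 gave r = 0.75 (permutation p = 0.021, adjusted 0.031), rho = 0.42 (permutation p = 0.2, adjusted 0.31) and r = -0.15 without the 2 farthest animals, so over the 11 animals that relation rested on those 2. Within the 7 Cyp1a2_CA animals, which include CAB52, r was 0.94 (exact permutation p = 0.0052). Mat1a and Mat2a (r = -0.37, permutation p = 0.26, adjusted 0.32; rho = -0.23, permutation p = 0.5, adjusted 0.6; r = 0.08 without the 2 farthest animals) and Shmt2 and Mthfd2 (r = -0.07, permutation p = 0.86, adjusted 0.86; rho = 0.18, permutation p = 0.6, adjusted 0.6; r = 0.16 without the 2 farthest animals) showed no relation that passed, and within the 7 Cyp1a2_CA animals gave -0.68 (exact permutation p = 0.12) and -0.02 (exact permutation p = 0.97).

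The genes most like 4 members in their order over those 11 animals, among 10031 genes with a mean of at least 5 CPM, are given as a description. They were N4bp2l1 (Spearman rho 0.90), Dpyd (0.88) and Cyp2c37 (0.87) for Mat1a, and Prim2 (0.94), Uchl5 (0.93) and Enc1 (0.90) for Mat2a. For Phgdh they included Rps12 (0.93) and A830080D01Rik (0.93), and for Mthfd2 they were Kcnq1ot1 (0.97), Frmd6 (0.96) and Slc22a27 (0.95).

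**Figure D5:**
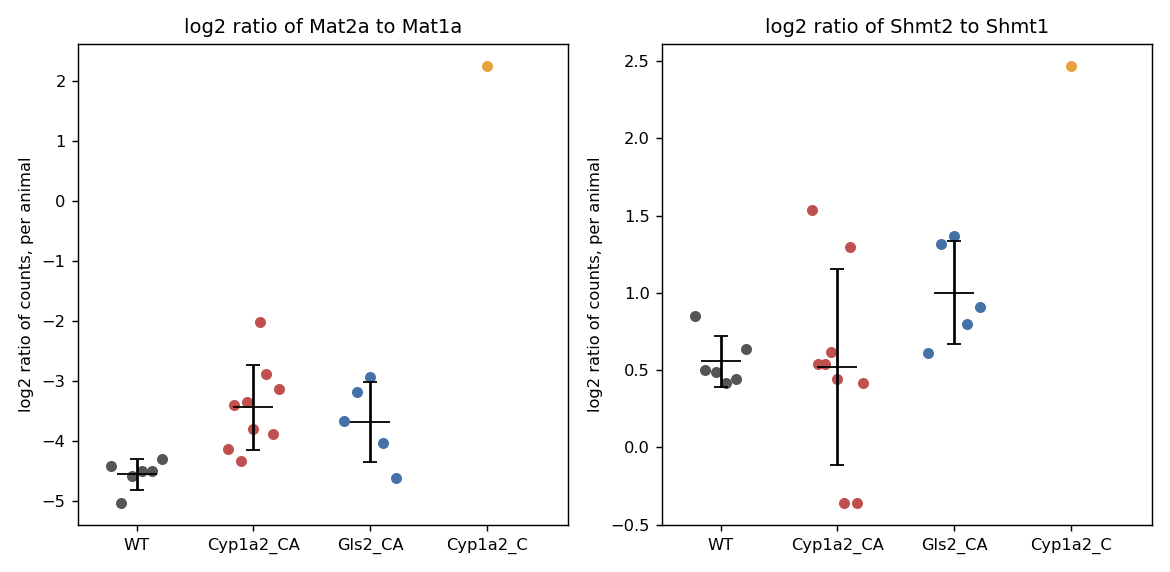
Log2 ratio of counts of Mat2a to Mat1a (left) and of Shmt2 to Shmt1 (right) in every animal, with mean and SD for WT, Cyp1a2_CA and Gls2_CA and the single Cyp1a2_C library. On the left 8 of 9 Cyp1a2_CA and 4 of 5 Gls2_CA animals lie above every WT animal; on the right the Cyp1a2_CA animals fall on both sides of WT.

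The rest of the pathway was read from 9 lists with 80 further genes, all of them measured and tested. In Cyp1a2_CA 25 were higher and 38 lower than WT, with a median log2 fold change of -0.21, and in Gls2_CA 24 were higher and 37 lower, also with a median of -0.21. Over all genes tested, 38.3% were higher and 32.7% lower in Cyp1a2_CA with a median of 0.17, and 39.2% and 34% in Gls2_CA with a median of 0.14. Between the drivers 0 of the 80 passed. Among 8 partners of the methionine cycle, 3 rose and 2 fell in Cyp1a2_CA, and 4 rose and 2 fell in Gls2_CA; with the offset for exon length and GC content 1 rose and 3 fell in each. Ahcyl2, a relative of Ahcy, was 1.37 and 1.48 higher on the log2 scale, but -0.20 and -0.09 with the offset for exon length and GC content. Mat2b, the regulatory partner of Mat2a, fell by 0.52 in Cyp1a2_CA and 0.50 in Gls2_CA. Ahcyl1 was 0.29 higher (adjusted p = 0.12, edgeR) in Cyp1a2_CA, or -0.29 with the offset. In Gls2_CA it rose by 0.71, or 0.16 (adjusted p = 0.39, edgeR) with the offset.

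Of 8 liver methyltransferases, which spend S-adenosylmethionine as Gnmt does, 2 rose and 3 fell in each tumour group. Without the libraries with high Ttn, 4 rose and 3 fell in Cyp1a2_CA, and 3 rose and 3 fell in Gls2_CA. Inmt fell by 3.92 and 4.30 on the log2 scale and Nnmt, the nicotinamide methyltransferase, by 2.18 and 2.99 in Cyp1a2_CA and Gls2_CA. Tpmt, the thiopurine methyltransferase, rose by 2.07 and 1.61, and Pemt, which makes phosphatidylcholine, by 0.92 and 1.10. Of 5 enzymes that break down choline and betaine, 4 fell in each group and 0 rose, among them Dmgdh (-2.33 and -2.41), which removes a methyl group from dimethylglycine, the product of Bhmt, and Sardh (-0.91 and -1.12) on the next step.

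Below Cbs, 10 genes of transsulfuration and cysteine use split, with 3 higher and 4 lower in Cyp1a2_CA and 2 higher and 3 lower in Gls2_CA. Without the library with high Ttn, 4 were higher and 3 lower in Gls2_CA. Cth, which completes cysteine synthesis, fell by 1.74 and 1.37 on the log2 scale. Csad, on the route from cysteine to taurine, rose by 3.19 and 3.6, from 74.3 ± 29.0 CPM (SD, n = 6) in WT to 718 ± 659 (n = 9) and 972 ± 569 (n = 5). Tst fell by 2.06 and 1.87. For glutathione synthesis, Gclc rose by 1.64 and 1.70 (adjusted p = 4.3e-04 and 0.0053, edgeR). Gclm fell by 1.10 in Cyp1a2_CA and was at -0.56 (adjusted p = 0.18, edgeR) in Gls2_CA.

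Around serine, 2 of 5 genes rose and 3 fell in each group. Psph, the last enzyme of serine synthesis after Psat1, rose by 1.47 and 1.08 on the log2 scale, and Srr, the serine racemase, by 1.57 and 1.60. Sds, the serine dehydratase of the liver, fell from 180 ± 48.9 CPM (SD, n = 6) to 17.8 ± 13.3 (n = 9) and 15.3 ± 12.3 (n = 5), or by 3.41 and 3.65. Agxt, which uses serine and alanine as amino donors, fell by 2.27 and 2.33, and Sdsl, a relative of Sds, by 2.27 and 2.31. In glycine cleavage, 3 of 4 genes fell in each group, namely Gldc (-3.11 and -3.31), Dld (-1.56 and -1.42) and Gcsh (-1.91 and -2.14). The fourth, Amt, was 0.75 higher (adjusted p = 0.0064, edgeR) in Cyp1a2_CA and 0.32 (adjusted p = 0.17) in Gls2_CA, or 0.73 (adjusted p = 0.0019, edgeR) with the offset. It also passed in Gls2_CA without the library with high Ttn.

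In the folate cycle, 6 of 16 genes rose and 9 fell in Cyp1a2_CA, and 6 rose and 8 fell in Gls2_CA. Mthfd1, the cytosolic enzyme that shares its reaction with Mthfd2, fell by 2.20 and 2.32 on the log2 scale. Aldh1l1, which oxidises formyl folate, fell by 1.91 and 2.27, and Mtfmt by 1.57 and 1.73. Tyms, which makes thymidylate, rose by 2.02 and 2.16. In polyamine synthesis and methionine salvage, 1 of 10 genes rose and 7 fell in each group, and with the offset 2 rose and 7 or 6 fell. Without the library with high Ttn, 2 rose and 7 fell in Gls2_CA. Srm, the spermidine synthase, fell by 2.54 and 2.42 and Adi1 of the salvage route by 2.20 and 2.03.

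Phgdh, Psat1 and Mthfd2 are known targets of Atf4, the transcription factor of the amino acid response. Of 14 genes of that response, 7 rose in each tumour group, where 38.3% and 39.2% of all genes tested were higher, and 6 rose in each with the offset. Against this, 3 fell in Cyp1a2_CA (1 with the offset) and 4 in Gls2_CA. Asns, the asparagine synthetase, rose from 1.55 ± 0.50 CPM (SD, n = 6) to 49.3 ± 66.0 (n = 9) in Cyp1a2_CA and 18.7 ± 13.1 (n = 5) in Gls2_CA, log2 fold changes of 4.92 and 3.50. Nupr1 rose by 4.08 and 4.44 and Cars by 2.24 and 1.55. Slc3a2 rose by 1.03 and 1.12 and Ddit3 by 1.95 and 1.79. Of 6 proliferation genes, 4 rose and 1 fell in Cyp1a2_CA. Of the 5 tested in Gls2_CA, 3 rose and 1 fell, and with the offset 2 fell in each group. Mki67 was 5.10 and 4.22 higher on the log2 scale, and Pcna, also a gene of dividing cells, fell by 1.28 and 1.3.

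RefSeq promoters (GRCm38.p6, 250 bases before to 50 after the start) were found for 9 of the 10 members, with 10 entries in all because Psat1 has 2. The CARE core TGATGCA, to which Atf4 binds, was in 0 of the 10 entries on either strand, and in 3.15% of 32851 promoters. The TCF/LEF core CTTTGAT, the element of beta-catenin signalling, was in 0 of 10 and in 3.73% of all. The E-box CACGTG, to which Myc binds, was in 1 of 10, that of Cbs, and in 7.15% of all, on both strands alike as it is its own reverse complement. It is shown as the only match among the members. The stretch lies at chr17:31637399-31637455 on the minus strand, with the motif in capitals. The motif starts at -229 from the RefSeq start used for these promoters, which is not the GENCODE gene start given above.
Cbs promoter: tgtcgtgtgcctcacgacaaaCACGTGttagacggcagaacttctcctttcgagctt
A match is a description of letters, and none of these data measure binding.

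For the Cyp1a2_C library there is no replicate and no test. Gnmt was at 2.23 CPM there, Mat1a at 8.85, Bhmt at 4.03, Ahcy at 2.97, Cbs at 8.10 and Shmt2 at 23.2. Each was below every animal of the other 3 groups. Mat2a was at 42.4 CPM, within the range of both other tumour groups. Phgdh (1.76 CPM), Psat1 (9.99) and Mthfd2 (8.78) were above every WT animal. This library was among the 4 with high Ttn and had the lowest hepatocyte markers of all libraries.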

How the data were processed

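RNA sequencing covered 26 libraries. The labels' protocols describe 1 procedure for all samples, worded for frozen tumours: 100 ng of RNA, Nugen Ovation libraries and 1 flow cell. The deposited values are the authors' whole-number read counts per gene symbol, not normalized. The build was mm10 per the submitters' processing notes. Aligner, counter, strand setting and annotation: not given in the sources used here. Libraries sharing an animal number were added together. Comparisons were fitted 1 pair of groups at a time (R 4.3.3, edgeR 4.0.16, filterByExpr, TMM, robust quasi-likelihood test, Benjamini-Hochberg over all genes, threshold 0.05). Levels are CPM on TMM-scaled totals. Ratios used a pseudocount of 0.5 counts, and correlations log2(CPM + 0.1) with 100000 permutations. The offset is a smooth function of exon length and GC content per animal, with values for 88.1% (Cyp1a2_CA) and 90.3% (Gls2_CA) of the genes tested against WT. Alternatives were other scalings, filters, DESeq2 1.42.0, limma-voom 3.58.1, all 3 groups in 1 fit, every library as a replicate, no high Ttn libraries and leaving out each animal. The members and lists were chosen with earlier results of these data known. Named genes were the members, the up to 4 genes of each list with the smallest p against WT, Mki67, Ttn, Arid2 and the genes most alike. Of these, the text names part, and some are not reported here. Gm4737 and Shmt1 were added. Of the steps, the main edgeR fit was tested on simulated counts.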

Additional observations from a re-analysis of the deposited data

Results flagged for a closer look

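Values set apart from the rest of their group by a gap that is large for the range of the group were looked for. This covered the 10 members over 3 groups of animals, 30 groups in all, of which 7 had such a value. Most were the highest animal for Phgdh, Psat1 or Mthfd2. Gaps were taken on CPM, where low-count genes are skewed, so the nominal chance rate of about 1 in 20 is not a fair measure here. In Cyp1a2_CA, animal CAB52 had the highest Phgdh (11 CPM, next 2.96) and the highest Psat1 (104 CPM, next 7.52). It was also lowest in the group for Gnmt (32.5 CPM), Mat1a (220 CPM) and Bhmt (15.9 CPM). CAB145 had the highest Cbs (844 CPM, next 510). In Gls2_CA, GAB235, whose library is 1 of the 4 with high Ttn, had the highest Phgdh (3.53 CPM, next 1.01), and GAB18 the highest Mthfd2 (12.4 CPM, next 5.01). In WT, BL1 had the lowest Mat1a (1339 CPM, next 1687) and BL5 the highest Mthfd2 (2.93 CPM, next 1.58).

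The single Cyp1a2_C library, which entered no comparison, held Phgdh at 1.76 CPM, Psat1 at 9.99 CPM and Mthfd2 at 8.78 CPM, above the highest WT animal for each (0.257, 1.54 and 2.93 CPM).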

How the results depend on the processing

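Against WT, the members kept direction and side of the threshold in 238 of 239 alternative values in Cyp1a2_CA and 183 of 190 in Gls2_CA. The other named genes did so in 1315 of 1318 and 1127 of 1134. Many of these values came from leaving out 1 animal of the same data. Phgdh in Gls2_CA did not enter, and a setting that filtered a gene out gave no value for it. With the offset for exon length and GC content, Cbs was -0.28 in Gls2_CA, Ahcyl1 -0.29 in Cyp1a2_CA, and Ahcyl2 -0.20 in Cyp1a2_CA and -0.09 in Gls2_CA; the cause was not tested. Between the drivers Gnmt turned from 0.18 to -0.06 with every library as a replicate, -0.01 with limma-voom and -0.02 without CAB145 (range over left-out animals -0.02 to 0.55), and Bhmt from 0.32 to -0.00 with every library as a replicate. The stricter filter left 2 members higher in Cyp1a2_CA, because Phgdh and Psat1 were no longer tested, and limma-voom with the animal as a random effect left 0 higher in Gls2_CA. Genes past the threshold between the drivers numbered 6 with every library as a replicate and 19 with DESeq2, against 0. The log2 ratio of Mat2a to Mat1a in Gls2_CA fell to 0.61 and that of Shmt2 to Shmt1 to 0.37 with every library as a replicate. In Cyp1a2_CA the latter, -0.04, ranged from -0.17 to 0.07 when animals were left out. The correlation of Shmt2 and Mthfd2 was 0.16 over all 14 tumour animals and 0.07 with values centred on each driver group. Upper-quartile factors moved the median of all genes from 0.17 to -0.05 in Cyp1a2_CA and from 0.14 to -0.09 in Gls2_CA, with 5592 higher and 6260 lower calls and 5118 and 5838; no member changed its call. Limma-voom with the animal as a random effect could not be fitted in Cyp1a2_CA against WT, where 1 animal had more than 1 library. No paired analysis was possible because replicate numbers were given in accession order. Depth limits Phgdh most, with 13 counts over the 6 WT libraries.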

Other observations

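The share of Gm4737 among the counts of Ahcy and Gm4737 took separate levels in the tumour libraries. It was 20.5% to 27.5% in 7 libraries (CAB225, CB6, GAB229, GAB235 and all 3 of GAB242) and 44.0% to 54.5% in the other 13, and 0.483% to 1.24% in WT. Libraries of the same animal lay in the same range, at 46.5% and 47.8% in CAB28, 25.0% to 27.5% in GAB242 and 49.0% to 54.5% in GAB294.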
